A study of Mus musculus with 8 samples.

Results

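A list of 9 genes in which recurrent de novo variants are found in people with autism was followed in single cortical interneurons of wild-type mice. The genes were *Chd8*, *Arid1b*, *Adnp*, *Pogz*, *Tbr1*, *Cul3*, *Dyrk1a*, *Ank2* and *Katnal2*. They were taken by name as known risk genes and not by a rule on their values, though with earlier results of these data known. They are 9 of the 23335 gene names in the count table. Of the 9, 8 had a count in some cell, as did 16531 of all gene names. Most of the list acts on gene regulation, but *Ank2* encodes a membrane scaffold and *Katnal2* a protein related to microtubule-severing enzymes.

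Chandelier cells (ChC) are interneurons whose axons end on the initial segment of pyramidal neuron axons, and fast-spiking basket cells (Pv) are interneurons that contact the cell body. ChC came from Nkx2.1-CreER; Ai14 mice given tamoxifen at E17.5, a timing the study used to enrich for ChC, and Pv cells came from *Pv*-ires-Cre; Ai14 mice, in which any cell that expresses parvalbumin can be labeled. Red fluorescent neurons were isolated singly from slices of frontal cortex of 4 female mice. Animal 1 (postnatal day 31) gave ChC batches 1 and 2, animal 2 (day 32) gave ChC batches 3 and 4, animal 3 (day 29) gave Pv batches 5 and 6, and animal 4 (day 35) gave Pv batches 7 and 8. A batch is a library of 16 cells, and a cell failed in each of batches 4 and 6, which left 63 cells of each type. Each cell type had its own mouse line, Cre driver and flow cell, so these cannot be told apart from cell type. Within a cell type each animal had its own lane, so lane cannot be told apart from animal.

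The unit is the UMI, a tag that marks a single RNA molecule before amplification. Batches 1 to 4, of ChC, summed to 448121, 556405, 2460679 and 1123083 UMI, and batches 5 to 8, of Pv, to 392580, 430860, 316540 and 797177. Single ChC ranged from 903 to 515374 UMI around a median of 33244, and single Pv cells from 2000 to 93438 around 23248. Levels are given as CPM, the UMI of a gene per 1000000 UMI of the batch, with TMM scaling between batches. Tags were primed at the poly(A) tail and count molecules, so levels of different genes were compared without division by length.

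As background, CHD8, ARID1B, ADNP and POGZ are nuclear proteins that remodel or bind chromatin, and TBR1 is a transcription factor that specifies deep-layer glutamatergic neurons of the cortex. CUL3 is the scaffold of a ubiquitin ligase that marks proteins for degradation, and DYRK1A is a kinase that phosphorylates splicing and transcription factors. Many risk genes of this kind are active from early development onward and are broadly transcribed in adult neurons, so that in sorted interneurons their level and its spread bear on how well single cells can measure them.

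The levels of cell class markers were read first. All 10 interneuron markers examined had counts, and the most abundant was *Erbb4*, a neuregulin receptor, at a mean of 3169 CPM over the 8 batches. The summed level of the interneuron markers was 9897, 11640, 8824 and 9355 CPM in ChC batches 1 to 4 and 9493, 9591, 5084 and 7958 CPM in Pv batches 5 to 8. Of 13 pyramidal neuron markers, 8 had counts, led by *Nrgn* at 287 CPM, while *Slc17a6*, *Neurod6*, *Neurod1*, *Emx1* and *Fezf2* were at 0. Their summed level was 215, 1006, 166 and 1057 CPM in the ChC batches and 733, 692, 2372 and 605 CPM in the Pv batches, so batch 7 was the highest. Single genes of the interneuron list differed in both directions, with *Erbb4* at 3875 to 5777 CPM in the ChC batches and 1356 to 1946 CPM in the Pv batches, and parvalbumin (*Pvalb*) at 85.4 to 200 and 573 to 1757 CPM. Other lists were lower or uneven. *Slc1a2* led the astrocyte list at 164 CPM, where 5 of 6 genes had counts and *Gfap* was at 0. *Adarb2* led the caudal eminence list at 244 CPM, with 1669 CPM in batch 4 and at most 127 CPM in any other batch, and in this list 4 of 5 genes had counts and *Vip* was at 0. *Mbp* (29.8 CPM), *Csf1r* (2.77 CPM) and *Flt1* (8.37 CPM) led the oligodendrocyte, microglia and endothelial lists, with *Mag*, *Mobp*, *Cspg4*, *C1qa* and *Cldn5* at 0.

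Ordered by the mean over the 8 batches, *Dyrk1a* was the most abundant of the 9 genes at 196 ± 190 CPM (SD, n = 8 batches). It was followed by *Ank2* at 170 ± 89.5, *Arid1b* at 158 ± 100 and *Chd8* at 138 ± 142 CPM. *Adnp* at 101 ± 52.4 CPM and *Pogz* at 97.3 ± 151 CPM came next, then *Cul3* at 40.5 ± 75.2 and *Katnal2* at 12.7 ± 31.2 CPM, and *Tbr1* had no UMI. Each gene differed from its neighbor in this order by less than the SD over batches of the more variable of the pair. The median of the 9 means was 101 CPM, against 17.6 CPM over the 16531 genes with a count, and 7 of the 9 were above that median. *Katnal2* stood at percentile 43.9 of the genes with a count, *Cul3* at 67.3 and *Dyrk1a* at 93.3. Single batches set several of these means, since *Katnal2* fell to 1.70 CPM without batch 8, and *Cul3* to 14.6 and *Pogz* to 49.5 CPM without batch 6.

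The question of cell type was put to UMI summed per animal, 2 ChC animals against 2 Pv animals, with edgeR's quasi-likelihood test and Benjamini-Hochberg adjustment over 9681 genes. Of the 9 genes, 7 passed the filter on low counts, all but *Katnal2* and *Tbr1*, and 0 of these 7 passed the threshold of 0.05, where 0 of all 9681 genes (0%) passed. At an unadjusted p under 0.05 the test gave 618 genes (6.38%) and 0 of the 7, and DESeq2 on the same sums called 165 of 16531 genes and 0 of the 8 risk genes with a count. The median log2 fold change of ChC over Pv was 0.79 for the 7 genes and 0.05 for all genes tested, with 4 genes higher in ChC and 3 higher in Pv. With *Katnal2* included the median was 0.09 in DESeq2 and 0.12 in edgeR with no filter, with 4 genes higher in each type. In none of the 8 genes with a count did all batches of a cell type lie above all batches of the other, a pattern found in 508 of 16531 genes (3.07%).

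*Chd8* encodes a chromodomain helicase that represses Wnt target genes and binds many active promoters (chromosome 14 of mm9, 52817826 to 52857247, minus strand). It was at 210, 434, 28.3 and 195 CPM in ChC batches 1 to 4 and at 19.1, 106, 108 and 5.75 CPM in Pv batches 5 to 8. ChC batches 1, 2 and 4 lay above all Pv batches, but ChC batch 3, the deepest of all, lay among the low Pv batches, so that the groups overlapped. The means were 217 ± 167 CPM in ChC and 59.6 ± 54.8 CPM in Pv (SD, n = 4 batches each), and the ChC mean was 144 CPM without batch 2. The log2 fold change was 2.07 (SE 1.03, edgeR adjusted p = 0.834), the largest in absolute value of the 7 tested, and it was 0.71 without animal 1. A *Chd8* UMI was found in 14 of 16, 15 of 16, 13 of 16 and 14 of 15 ChC cells and in 4 of 16, 11 of 15, 14 of 16 and 5 of 16 Pv cells. The high and low Pv batches were split within both animals, with batch 6 above batch 5 of animal 3 and batch 7 at 18.8 times the level of batch 8 of animal 4.

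With each cell thinned to 10000 UMI, which 48 ChC and 55 Pv cells allowed, *Chd8* was expected in 72.0% of ChC and 34.5% of Pv cells, against 88.9% and 54% of all cells unthinned. This was the widest gap between cell types among the 9 genes at equal depth. In the batches it ran from 8.01% (batch 5) and 9.22% (batch 8) to 99.0% (batch 2). Among 8 other members of the CHD family, 0 of 7 tested passed the threshold, with a median log2 fold change of 0.62. The most abundant was *Chd9* (341 CPM), and *Chd3*, a NuRD remodeler, had the largest log2 fold change of that list at 5.75 (SE 1.58, edgeR adjusted p = 0.582). Of 13 genes of Chd8 partners and the Wnt pathway, 0 of 10 tested passed (median -0.09). *Apc*, a brake on beta-catenin, led it at 524 CPM, and the Wnt co-receptor *Lrp6* had the largest log2 fold change, 2.80 (SE 1.46, edgeR adjusted p = 0.847).

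*Arid1b* encodes a DNA-binding subunit of the BAF chromatin remodeling complex (chromosome 17, 4995074 to 5347656, plus strand). It was at 179, 129, 58.9 and 112 CPM in ChC and at 104, 188, 384 and 107 CPM in Pv batches. Batch 7 was the highest and the other 7 batches of both types were interleaved between 58.9 and 188 CPM. The means were 120 ± 49.5 CPM in ChC and 195 ± 131 CPM in Pv (SD, n = 4 batches each), and the Pv mean was 133 CPM without batch 7. Its log2 fold change of ChC over Pv was -0.58 (SE 0.86, edgeR adjusted p = 0.989). The batch with the highest *Arid1b* was also the highest in pyramidal neuron markers and in astrocyte markers (713 CPM) and the lowest in interneuron markers. Batch 4, next in pyramidal neuron markers and astrocyte markers (698 CPM), had 112 CPM of *Arid1b*, within the range of the other batches, and the part of other cells was not tested. *Arid1b* had a UMI in 53 of 63 ChC and 58 of 63 Pv cells and in all cells of batches 4 and 7. Thinned to 10000 UMI the shares were 69.2% and 75.8%.

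Of 25 other BAF subunits, all had counts, 0 of 23 tested passed the threshold and the median log2 fold change was 0.04. *Smarca4*, an ATPase of the complex, was the most abundant at 302 CPM, and *Smarcd2* had the largest log2 fold change, -2.50 (SE 1.62, edgeR adjusted p = 0.906). *Arid1b*, at 158 CPM, was above the list's median of 46.3 CPM.

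*Adnp* encodes a homeodomain and zinc finger protein that recruits HP1 and CHD4 to chromatin (chromosome 2, 168006465 to 168032562, minus strand). It was at 120, 167, 160 and 22 CPM in ChC and at 59.9, 95.2, 130 and 54 CPM in Pv batches. Batches 2 and 3 were the highest and ChC batch 4 the lowest, below every Pv batch, so that the groups overlapped. The means were 117 ± 66.8 and 84.7 ± 35.1 CPM (SD, n = 4 batches each). Summed per animal, its log2 fold change was 0.79 (SE 0.93, edgeR adjusted p = 0.989). *Adnp* varied least of the 8 genes with a count, with a coefficient of variation over batches of 0.518, where the 200 genes nearest to it in mean CPM had a median of 0.936. It had a UMI in 46 ChC and 50 Pv cells, and in 60.1% and 55.7% of cells after thinning to 10000 UMI.

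*Pogz* encodes a zinc finger protein with a transposase-derived domain that binds HP1 (chromosome 3, 94641489 to 94687489, plus strand). It was at 0, 0, 140 and 31.7 CPM in ChC and at 166, 432, 5.40 and 3.45 CPM in Pv batches. The values followed the animal in both cell types, with animals 2 and 3 high and animals 1 and 4 at or near 0. The means were 42.8 ± 66.2 and 152 ± 202 CPM (SD, n = 4 batches each), or 10.6 CPM in ChC without batch 3 and 58.3 CPM in Pv without batch 6. In the test the log2 fold change was -1.42 (SE 2.05, edgeR adjusted p = 0.989). It turned to 3.78 without animal 3 and was -10.23 without animal 2 (adjusted p = 0.0872), where the remaining ChC animal was at 0 so that the fitted value is no bound, and the adjusted p without the other animals and under the other settings lay between 0.465 and 1.000.

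No cell of animal 1 had a *Pogz* UMI, in 16 cells of each of its batches. Its 1004526 UMI allow up to 2.99 CPM without scaling between batches, by a limit of 3 counts, and batch 3 was at least 50.3-fold higher than this. At the level of batch 3, 151 *Pogz* UMI would have been expected in animal 1. In the other ChC animal 15 of 16 and 12 of 15 cells had a UMI, in animal 3 these were 14 of 16 and 14 of 15 cells, and in animal 4 they were 2 of 16 and 3 of 16 cells. Thinned to 10000 UMI the share was 75.9% in batch 3, 25.8% in batch 4, 80.8% in batch 5, 98.6% in batch 6 and at most 4.06% in the other batches. In 7 genes of HP1 and Adnp or Pogz partners, 0 of 5 tested passed (median log2 fold change 0.89). *Cbx3*, an HP1 protein, led it at 202 CPM, and *Psip1* had the largest log2 fold change, 1.20 (SE 0.92, edgeR adjusted p = 0.953).

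*Tbr1* (chromosome 2, 61642510 to 61652170, plus strand) had 0 UMI in all 126 cells. The 6525445 UMI of all cells allow up to 0.460 CPM without scaling, by counting error alone. *Tbr1* therefore could not be tested, and at this depth no difference between ChC and Pv cells was detectable. It shared this with *Neurod6*, *Neurod1*, *Emx1* and *Fezf2*, further transcription factors of glutamatergic neurons, although *Camk2a*, *Nrgn* and *Slc17a7* of the same marker list had counts. In the list of Tbr1 partners and T-box genes 6 of 7 had counts and 0 of 5 tested passed (median log2 fold change 0.41). *Grin2b*, an NMDA receptor subunit, led this list at 723 CPM with a UMI in 125 of 126 cells, and *Tspyl2* had its largest log2 fold change, 0.58 (SE 1.43, edgeR adjusted p = 0.996).

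*Cul3* (chromosome 1, 80263393 to 80337005, minus strand) was at 2.56, 53.3, 26 and 2.64 CPM in ChC and at 2.72, 221, 8.10 and 6.90 CPM in Pv batches. Batch 6 was the highest and the other Pv batches lay within the range of ChC. Each animal except animal 4 had a batch high and a batch low, and of the batches of animal 3 batch 5 held 1 UMI and batch 6 held 86. The means were 21.1 ± 24.1 and 59.8 ± 108 CPM (SD, n = 4 batches each), and without batch 2 the ChC mean was 10.4 CPM and without batch 6 the Pv mean was 5.91 CPM. The log2 fold change was -1.23 (SE 1.5, edgeR adjusted p = 0.989), and it was 1.81 without animal 3, the source of batch 6.

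Batches 3 and 6 held 78.3% of all 198 *Cul3* UMI. In these, 14 of 16 and 13 of 15 cells had a UMI, against 1 to 7 cells in each of the other batches. Batch 3 is also the deepest. Thinned to 10000 UMI the share was 81.1% in batch 6, 38.8% in batch 2, 27.8% in batch 3 and at most 6.49% in the other batches, or 17.2% of ChC and 20.9% of Pv cells. Of 27 other cullins and parts or adaptors of the Cul3 ligase, 26 had counts and 0 of 25 tested passed (median log2 fold change 0.39). *Rbx1*, the RING subunit shared by cullin ligases, was at 259 CPM, and *Cul4a* had the largest log2 fold change, 2.86 (SE 1.82, edgeR adjusted p = 0.901). The list's median level was 48.3 CPM, and *Cul3* was at 40.5 CPM, or 14.6 CPM without batch 6.

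*Dyrk1a* (chromosome 16, 94791813 to 94917126, plus strand) was at 619, 191, 203 and 37.9 CPM in ChC and at 204, 0, 216 and 97.7 CPM in Pv batches. Batch 1 was the highest and batch 6 had none, while the other 6 batches were interleaved. The means were 263 ± 249 and 130 ± 101 CPM (SD, n = 4 batches each), and the ChC mean was 144 CPM without batch 1. Without that batch the mean of *Dyrk1a* over the other 7 batches was 136 CPM, below those of *Ank2* (182 CPM) and *Arid1b* (154 CPM). With its equal rows summed the means were 444 and 224 CPM. Its log2 fold change of ChC over Pv was 1.17 (SE 0.80, edgeR adjusted p = 0.924), and 0.46 without animal 1.

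In batch 6 none of 15 cells had a *Dyrk1a* UMI, where in each of the other 7 batches between 11 and 16 cells had one, including 15 of 16 cells of batch 5 from the same mouse. The 430860 UMI of batch 6 allow up to 6.96 CPM without scaling, and batch 5 was at least 27.4-fold higher than that limit of 3 counts. At the level of batch 5 batch 6 would have been expected to hold 82.3 *Dyrk1a* UMI, and at the level of the lowest other batch 16.5. Thinned to 10000 UMI, 73.8% of ChC and 62.1% of Pv cells had a UMI, where the Pv share includes batch 6 at 0%. In Pv batches 5, 7 and 8 the share was 81.9%, 93.3% and 65.9%. In ChC batches 1 to 4 it was 99.8%, 84.6%, 89.8% and 30.4%, so the shares of the types overlapped. Of 20 related kinases and NFAT pathway genes, 17 had counts and 0 of 15 tested passed (median log2 fold change 0.03). *Rcan2*, a regulator of calcineurin, led them at 229 CPM, and *Hipk2* had the largest log2 fold change, 2.92 (SE 1.09, edgeR adjusted p = 0.676).

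*Ank2* encodes ankyrin-B, an adaptor between membrane proteins and the spectrin skeleton (chromosome 3, 126624525 to 126701370, minus strand). It was at 89.5, 337, 202 and 241 CPM in ChC and at 109, 183, 135 and 66.7 CPM in Pv batches. ChC batches 2 to 4 lay above all Pv batches, and batch 1 lay among the lower Pv batches. The means were 217 ± 102 and 123 ± 48.6 CPM (SD, n = 4 batches each). Summed per animal, its log2 fold change was 0.96 (SE 0.78, edgeR adjusted p = 0.963), and it lay between 0.62 and 1.38 with each animal left out. *Ank2* was detected in the most cells, 114 of 126, against a median of 82.1% for the 200 genes nearest in mean CPM. After thinning to 10000 UMI it was in 83.2% of ChC and 70.6% of Pv cells. All 10 other ankyrins, spectrins and partners were in every batch, 0 of 10 passed (median log2 fold change 0.11), *Ank3* (ankyrin-G) led at 444 CPM, and the sodium-calcium exchanger *Slc8a1* had the largest log2 fold change, 1.09 (SE 0.65, edgeR adjusted p = 0.876).

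*Katnal2* (chromosome 18, 77231939 to 77286035, minus strand) was at 0, 0, 1.13 and 2.64 CPM in ChC and at 0, 0, 8.10 and 89.6 CPM in Pv batches. Batch 8 stood alone, with 78 of the 87 UMI and 15 of 16 cells, and batches 3, 4 and 7 had 3 UMI each, in 3 cells each. The limits that a count of 0 allows were 6.69, 5.39, 7.64 and 6.96 CPM in batches 1, 2, 5 and 6, above the values of batches 3 and 4, so these batches could not be ordered. Batch 7, with 3 UMI, and batch 8, with 78, came from the same mouse. The filter on low counts removed the gene from the main test. With no filter its log2 fold change was -4.90 (SE 2.17, edgeR adjusted p = 0.432) and with DESeq2 -5.10 (SE 2.39, adjusted p = 0.341), both larger in absolute value than those of the 7 genes in the main test. Of 6 other microtubule-severing genes all had counts, and 0 of 4 tested passed (median log2 fold change -0.58). *Spast* led at 66.1 CPM.

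**Figure D1:**
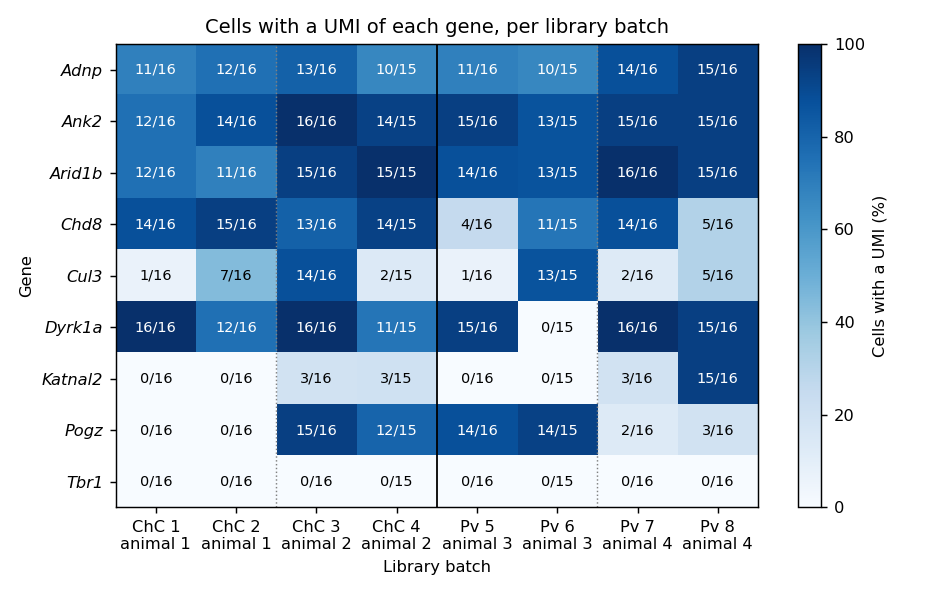
Share of cells with a UMI (color, percent) of each of the 9 genes in the 8 library batches, with the number of cells in each field and the animal under each batch; the solid line parts ChC from Pv and dotted lines part the animals. *Dyrk1a* was in 0 of 15 cells of batch 6 and in 15 of 16 cells of batch 5, *Pogz* was in no cell of batches 1 and 2, and *Katnal2* was in 15 of 16 cells of batch 8.

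**Figure D2:**
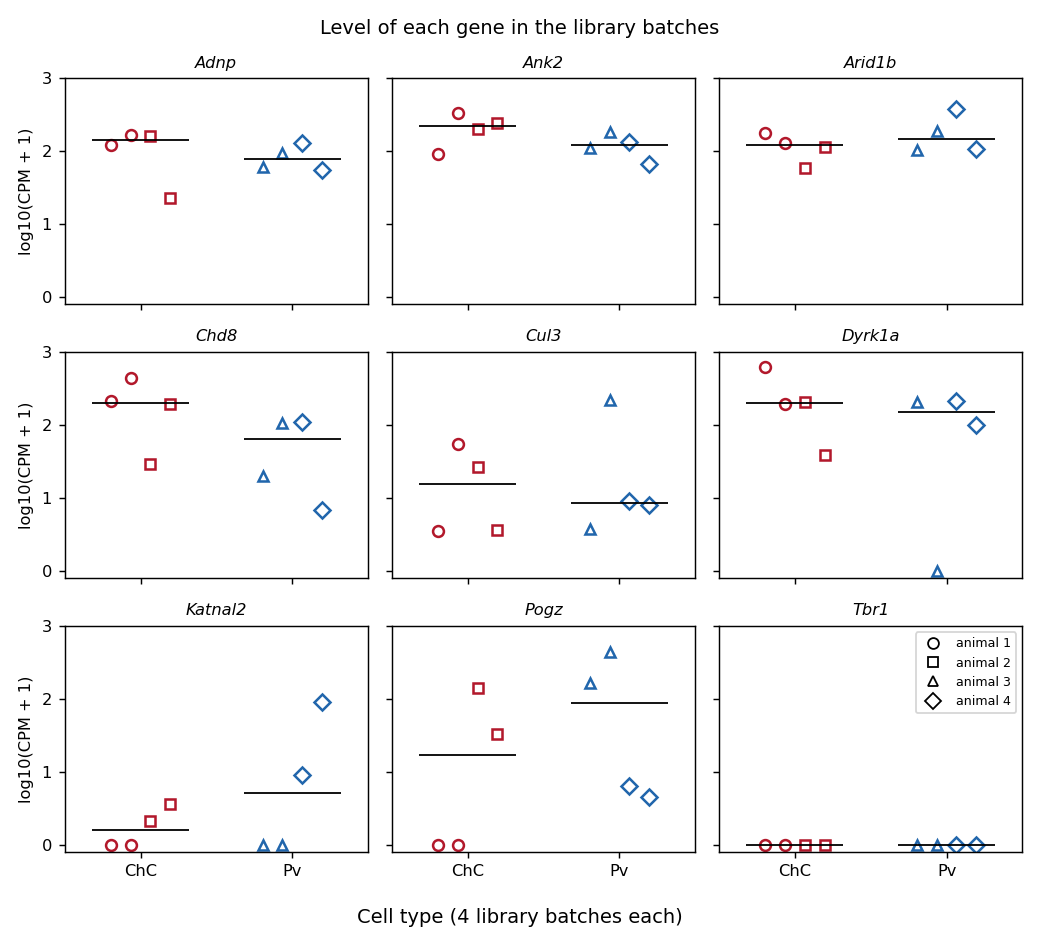
Level of each gene in every library batch as log10(CPM + 1) with TMM scaling, by cell type; a symbol is a batch, its shape the animal, and the line the median of 4 batches. The batches of ChC and Pv overlap in every panel, and *Tbr1* is at 0 in all 8 batches.

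Of the 9 genes, *Dyrk1a*, *Pogz* and *Katnal2* each had a batch without any UMI and another batch in which at least 80% of the cells had one. This was chosen as a measure after the counts were seen. It held for 3 of the 8 genes with a count and for 3743 of 16531 genes (22.6%). Among the 200 genes nearest in mean CPM it held for 8.00% around *Dyrk1a*, 19% around *Pogz* and 41% around *Katnal2*. In the cells with at least 10000 UMI it also held for *Cul3*, and for 4544 of the 16531 genes. It was lost for *Dyrk1a* without batch 6 and for *Katnal2* without batch 8. Of 146 genes in the 10 related lists it held for 38 (26%), from 0 of 10 ankyrins and spectrins to 4 of 6 severing genes.

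The batches of an animal were compared with those of other animals by the mean absolute log2 difference of CPM with a pseudocount of 1. Where a batch is at 0 the pseudocount sets the difference. So it is for *Dyrk1a*, at 3.23 between the batches of an animal, where animal 3, with batch 6 at 0, gave 7.68 and animals 1, 2 and 4 gave 1.69, 2.39 and 1.14, and the median of its 200 nearest genes was 1.32. For *Chd8* (2.55, median 1.48) and *Cul3* (3.23, median 2.12) it was also above the median of the nearest genes. For *Pogz*, with both batches of animal 1 at 0, the order was the other way, with 1.00 between the batches of an animal and 5.87 between animals of the same type, where the medians of its nearest genes were 1.83 and 1.96. *Katnal2* gave 1.02 and 3.16, but animals 1 and 3 had no UMI in either batch, while the batches of animal 4 differed by 3.32. *Adnp* (1.30), *Ank2* (0.976) and *Arid1b* (1.02) differed less between the batches of an animal than the medians of their nearest genes, 1.75, 1.45 and 1.57. Over the 2520 genes with a mean of at least 100 CPM, the median was 1.36 between the batches of an animal, 1.41 between animals of a type and 1.52 between cell types.

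The spread over the cells of a batch was set against sampling. The chi-square of the counts over the cells given their totals, per degree of freedom, has an expected value of 1 if nothing but sampling separates the cells, and it was taken where a gene had at least 50 UMI in a batch. Its median over 31 such cases was 0.889, where the medians of the 200 genes nearest in UMI had a median of 0.997, and 11 of the 31 cases lay above their own. The highest was *Dyrk1a* in batch 5 at 2.33, and the lowest *Ank2* in batch 6 at 0.456. *Pogz* in batch 6 gave 0.573 and *Katnal2* in batch 8 gave 0.958. The median of these 31 cases was thus near what sampling gives at the depth of the cells, while single cases lay above and below it. Batches with fewer UMI of a gene were not covered. *Chd8* therefore entered through ChC batches 1 to 4 only, *Cul3* through batches 3 and 6 only and *Katnal2* through batch 8 only. Whether tags were shared between the cell barcodes of a batch was not tested, and if they were, the numbers of cells with a UMI given throughout would not count cells that express the gene. Between batches the highest level was 5.05 times the lowest for *Ank2*, 6.52 times for *Arid1b* and 7.60 times for *Adnp*, the genes that varied least. These ratios were not set against sampling and cannot be compared with the chi-square. The deepest cell of a batch, which for *Pogz* in batch 3 held 23% of its UMI, held 20.9% of the UMI of all genes there.

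Because the study built networks from correlations over the cells of a batch, the 36 pairs of the 9 genes were correlated in each batch by Spearman's rho. This describes cells that share a library and differ in depth, and no test was made. With undefined pairs set to 0, the mean over pairs was 0.325 ± 0.152 for UMI (SD, n = 8 batches), 0.0375 ± 0.0547 for CPM and 0.0106 ± 0.0499 for UMI thinned to 10000 per cell. A value was defined in 178 of 288 pairs and batches for UMI and for CPM, and in 160 for thinned UMI. With the defined pairs averaged within each batch first, the means of the 8 batches were 0.559 for UMI and 0.0794 for CPM. The counts of each gene followed the cell total, with a mean rho from 0.426 for *Cul3* to 0.842 for *Arid1b* in UMI. In CPM these were 0.193 and 0.12, and after thinning *Arid1b* was at -0.109 ± 0.334 (SD, n = 8 batches).

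For single pairs in CPM, over defined values only, *Cul3* and *Pogz* had the highest mean rho, 0.348 ± 0.423 over 6 batches. Their values ran from -0.291 to 0.991. The highest value is from batch 7, where *Pogz* had 2 UMI and *Cul3* 3 UMI, in 2 cells each. Without that batch the mean fell to 0.219, below *Dyrk1a* and *Katnal2* (0.303 over 3 batches) and *Adnp* and *Ank2* (0.230), so the rank of the pair rests on these cells. Over all batches *Adnp* and *Ank2* followed at 0.274 ± 0.291 over 8 batches, positive in 6. *Dyrk1a* and *Pogz* were the lowest, at -0.215 ± 0.274 over 5 batches. Without batch 3 the lowest were *Chd8* and *Katnal2*, at -0.243 over 3 batches. With undefined values set to 0, *Adnp* and *Ank2* (0.274) lay above *Cul3* and *Pogz* (0.261). By that rule *Chd8* and *Dyrk1a* (-0.147) lay below *Dyrk1a* and *Pogz* (-0.134). Over all batches the SD was larger than the absolute mean for *Cul3* and *Pogz*, *Adnp* and *Ank2*, and *Dyrk1a* and *Pogz*.

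The connectivity of a gene, its ranked correlations summed over all other genes (node degree), was expressed as a percentile among the genes that varied in the batch. In UMI networks *Ank2* had the highest mean percentile, 81.0 ± 21.2 (SD, n = 8 batches), followed by *Arid1b* at 79.5 ± 21 and *Dyrk1a* at 76.0 ± 12.4 (7 batches). *Adnp* was at 73.7 ± 22.7, *Chd8* at 65.2 ± 29.1 and *Pogz* at 60.7 ± 22.4 (6 batches). *Cul3* at 39.8 ± 25.3 and *Katnal2* at 33.2 ± 24.7 (4 batches) were the lowest. In CPM networks the means lay between 38.6 (*Dyrk1a*) and 60.3 (*Ank2*), with SDs over batches from 22.9 to 38.2. Among its 200 nearest genes in level, *Dyrk1a* had a mean percentile of 39.8 in UMI and 38.5 in CPM networks, and *Ank2* 66.2 and 60.8. The percentile differed strongly between batches, and that of *Arid1b* in CPM networks ran from 2.84 to 97.3.

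**Figure D3:**
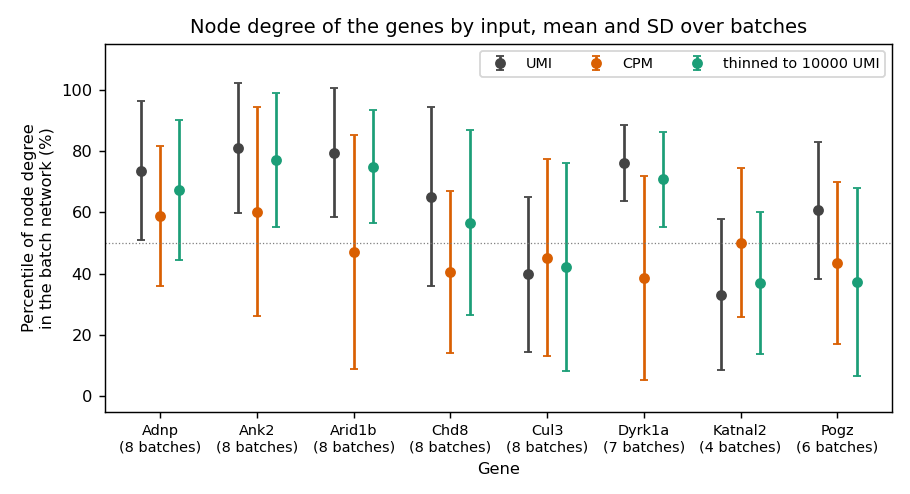
Percentile of the node degree of each gene in the network of a batch (mean and SD over the batches in which the gene varied, in percent) for UMI, CPM and UMI thinned to 10000 per cell; the number of batches for UMI and CPM is under each gene and *Tbr1*, with no UMI, is left out. *Ank2*, *Arid1b* and *Dyrk1a* lie highest in UMI, at 81.0, 79.5 and 76.0, and all CPM means lie between 38.6 and 60.3.

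For the 5 genes found in at least 50% of cells, the genes most like them were sought by mean rho of CPM over the 8 batches among 3923 other genes found in at least 50% of the cells of both types. *Adnp* was closest to *Prosapip1* (0.363 ± 0.170) and *Sfswap* (0.357 ± 0.333), and *Chd8* to *Cuedc2* (0.354 ± 0.178) and *Map1lc3a* (0.353 ± 0.260). *Arid1b* was closest to *Scn9a* (0.361 ± 0.248) and *Kif5a* (0.342 ± 0.214), and *Dyrk1a* to *Gucy1b3* (0.321 ± 0.289) and *Rplp2* (0.311 ± 0.275), where batch 6, without a *Dyrk1a* UMI, entered as 0 so that 7 batches were measured. *Ank2* was closest to *Gm12191* and *Rpl30*, both at 0.390 ± 0.258, which had the same UMI in all 126 cells and are not separate measurements. As the highest of 3923 values in sparse counts, these name the nearest genes and no more.

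Of 26 other autism risk genes, 25 had counts and 0 of 25 tested passed, with a median level of 97.2 CPM and a median log2 fold change of 0.43. *Grin2b* led this list too, with a log2 fold change of 0.33 (SE 0.55, edgeR adjusted p = 0.989), and the histone methyltransferase *Ash1l* had the largest, 1.96 (SE 1.32, edgeR adjusted p = 0.923). Of these 25, 2 had a batch without a UMI and a batch with one in at least 80% of cells, where 22.6% of all genes with a count did; this share depends on level, and the lists were not tested against each other. Over all 10 lists 127 genes were tested, 0 passed and 4 had an unadjusted p under 0.05, where 6.38% of all genes tested had one. In 2 genes (1.42% of those with a count) the batches of ChC and Pv did not overlap, against 3.07% of all genes with a count.

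The rows counted for these genes were set against GENCODE vM1 on the same genome build. The row of *Katnal2* ends 16052 bases before the 3′ end of the annotated gene and that of *Cul3* 1895 bases before it, so poly(A)-primed reads beyond these ends would not lie on the row, and whether there were any was not tested. The rows of *Chd8*, *Arid1b* and *Ank2* share the annotated 3′ end, and the row of *Pogz* runs 1241 bases past it. *Ank2* has a pair of rows with the same 3′ end, of which the longer had 1246 UMI, the shorter 996, and the shorter was not higher in any cell. The rows of *Dyrk1a* were equal in all cells, at 1168 UMI each. Rows of a name thus repeated molecules, and the row with the most UMI stands for each gene, in place of the sum. *Arid1b* and *Chd8* overlap a gene on the opposite strand (*Gm15599* and *Gm16682*), and *Adnp* and *Dyrk1a* overlap *Dpm1* and *Gm15971* on the same strand, as *Chd8* does a further gene model. Whether counting used the strand is not given in the sources used here, and reads shared with these cannot be told apart.

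Windows of 300 bases, from 250 before to 50 after a RefSeq start, were read for 8 of the genes on GRCm38.p6, and 6 of these have a single window. The motif CG, which reads the same on both strands, occurs in 94.6% of 32851 mouse windows, with a median of 7.00 copies in all and 17 in the 13 windows of the risk genes. The window of *Dyrk1a* with the most held 54 and 3 of the 4 windows of *Ank2* held 2 to 5. The windows below show the extremes of level among the genes with a single window, namely *Arid1b*, the most abundant of these at 158 CPM, with 42 copies (more than in 97.0% of windows), and *Tbr1*, without a UMI, with 7 copies (more than in 47.9%). They lie at chr17:4994824-4995123 and chr2:61804203-61804502, both on the plus strand, and capitals mark each CG. The counts of the motif describe these windows, and no relation to level was tested. On mm9 the count rows of *Arid1b* and *Tbr1* start 742 and 1523 bases inside the gene annotated in GENCODE vM1. Whether the windows lie at the outermost start of these genes was not tested.
Arid1b: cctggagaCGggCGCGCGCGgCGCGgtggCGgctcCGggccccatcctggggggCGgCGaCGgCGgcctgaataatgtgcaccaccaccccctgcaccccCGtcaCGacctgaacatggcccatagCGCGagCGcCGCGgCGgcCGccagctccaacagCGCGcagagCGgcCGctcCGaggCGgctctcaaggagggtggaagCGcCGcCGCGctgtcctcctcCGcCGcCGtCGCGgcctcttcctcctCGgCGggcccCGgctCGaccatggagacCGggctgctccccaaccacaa
Tbr1: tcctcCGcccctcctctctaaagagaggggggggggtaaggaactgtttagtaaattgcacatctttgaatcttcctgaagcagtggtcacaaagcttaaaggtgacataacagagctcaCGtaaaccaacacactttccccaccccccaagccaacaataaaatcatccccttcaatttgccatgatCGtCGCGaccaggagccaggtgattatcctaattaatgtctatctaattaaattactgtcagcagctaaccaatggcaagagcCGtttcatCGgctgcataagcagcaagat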

How the data were processed

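Messenger RNA of single interneurons was amplified and sequenced in 8 batches. With Bowtie 0.12.7 the authors placed poly(A)-primed reads on mm9, and they tallied reads that shared gene and varietal tag as a single molecule. The deposited values are these raw UMI counts per transcript and cell. All 128 cell columns were used, of which 2 had no count. The 9 genes and the related lists were chosen with earlier results of these data known.

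Of 1553 gene names with more than 1 row and at least 100 UMI, 1094 (70.4%) had a second row equal to the largest in over 50% of cells with a count, so the largest row was used and the sum was an alternative. UMI summed per animal were tested with edgeR 4.0.16 (quasi-likelihood, TMM, filter on low counts, Benjamini-Hochberg, threshold 0.05) in R 4.3.3. Alternatives were DESeq2 1.42.0, its size factors in edgeR, no filter, batches as samples, limma 3.58.1 with voom and the animal as a random block, cells with at least 10000 UMI, the sum of rows, and each animal left out. The animal is the replicate because its batches are not independent, and an exact test of 2 against 2 animals cannot go below a two-sided p of 0.333, so shares of cells were not tested.

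Levels are CPM of summed UMI with TMM scaling. Thinned shares are exact expectations of drawing 10000 or 5000 UMI per cell without replacement. Of 126 cells, 23 were under 10000 UMI (15 ChC and 8 Pv) and left out there. Limits for a count of 0 use 3 counts and cover counting error only, as do all precision statements on UMI. Like expression means the 200 genes nearest in mean CPM. No doublet caller was run on these singly isolated cells. Correlations were rounded to 1e-06 before ranking. The methods were tested on simulated data. Python 3.11.15, numpy 2.4.6, pandas 2.3.3, scipy 1.17.1 and matplotlib 3.10.9 were used.

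The named genes are all 9 genes; from each related list the most abundant gene, any gene past the threshold and the gene with the largest log2 fold change, which for 1 list is not reported here; from each marker list the most abundant gene and those at 0; and the 2 genes most correlated with each risk gene found in at least 50% of cells. *Camk2a*, *Slc17a7*, *Pvalb* and the genes overlapping the rows were named after their values were seen.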

Additional observations from a re-analysis of the deposited data

Results flagged for a closer look

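Each of the 16 groups of 4 batches with a count, 8 genes in 2 cell types, was examined for a batch far from the others. In 2 groups there was such a batch. The rule marks about 1 of 20 groups by chance if values follow a normal distribution, which was not tested for these CPM. The share of all genes that it marks was not measured, so 2 of 16 groups cannot be called an excess. *Cul3* in Pv cells stood at 221 CPM in batch 6, where the other Pv batches lay between 2.72 and 8.10 CPM, and the gap was 0.975 of the whole range. *Katnal2* in Pv cells stood at 89.6 CPM in batch 8, where the others lay between 0 and 8.10 CPM, a gap of 0.910 of the range. In both cases most cells of the batch had a UMI, 13 of 15 for *Cul3* and 15 of 16 for *Katnal2*, though whether tags were shared between the barcodes of a batch was not tested. Batch 6 was also the batch without a *Dyrk1a* UMI and the highest in *Pogz*. The causes were not tested.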

How the results depend on the processing

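None of the risk genes tested passed the threshold under any setting run. The number of all genes called was 0 with edgeR on animals, 165 with DESeq2, 84 with no filter on low counts, 6 with batches as samples, 6 with limma and the animal as a random block, and 14 to 96 with an animal left out, where the lone animal of a type is assumed to vary like the others; the cause was not tested. The batches of an animal had a consensus correlation of -0.0426 in the limma fit. Of 75 alternative log2 fold changes of single genes, 73 kept their direction. With an animal left out, *Cul3* ran from -2.17 to 1.81 and *Pogz* from -10.23 to 3.78, in both cases turning only without animal 3. The median log2 fold change of the risk genes tested lay between 0.01 and 1.18 with an animal left out, and fell from 0.79 to 0.09 with DESeq2 and 0.12 with no filter, where *Katnal2* was included.

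The median share of cells with a UMI over the 9 genes was 51.9% thinned to 10000 UMI, 71.4% unthinned and 34.9% thinned to 5000 UMI. Depth and cells both differ between these. There were 48 ChC and 55 Pv cells at 10000 UMI, 55 and 61 at 5000 UMI, and 126 in all unthinned. The mean correlation of the pairs was 0.325 for UMI, 0.0375 for CPM, 0.0106 for thinned counts and 0.559 as the mean of the batch means over defined pairs, and 0.285 to 0.364 with a batch left out. With a batch left out, mean levels moved from 59.8 to 5.91 CPM for *Cul3* and from 24.4 to 2.70 CPM for *Katnal2* in Pv and from 42.8 to 10.6 CPM for *Pogz* in ChC, and the sum of rows took *Ank2* to 321 CPM in ChC and 184 CPM in Pv. The settings for genes at 0 in a batch and in at least 80% of cells of another were chosen after seeing the data. With at least 90% of cells, the same 3 risk genes and 2020 in place of 3743 of all genes met it, and 2 or 3 risk genes did with a batch left out. No paired analysis was possible because the cell types share no replicate numbers. Depth limits the shallow Pv batches most, where 0 UMI allows up to 9.48 CPM in batch 7.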
